A study of Mus musculus with 15 samples.

Results

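The Hedgehog pathway was described in nuclei of cortical parvalbumin neurons through 9 genes: the ligand gene Shh, the receptor and co-receptor genes Ptch1, Hhip, Boc and Cdon, the signal transducer Smo, and the transcription factor genes Gli1, Gli2 and Gli3. They were chosen by name, among 46381 genes present in all 15 count tables, because Shh has been reported as a thyroid hormone target in the adult brain. All mice carried PvCre, which places Cre under the parvalbumin gene, and ROSA-tomato-lox, a reporter that Cre switches on and that makes nuclei fluorescent. PTU_TH mice (n = 4) had wild-type Thra (Thra+/+), ate propylthiouracil (PTU), a blocker of thyroid hormone synthesis, for 2 weeks, and received thyroid hormone by intraperitoneal injection 24 h before dissection. PTU mice (n = 3) had the same genotype and diet without the injection. Mut mice (n = 4) were untreated and carried ThraAMI/+, a floxed allele that expresses TRalpha1L400R, a dominant negative form of thyroid hormone receptor alpha. Ctrl mice (n = 4) were their untreated Thra+/+ littermates. All mice were adult, and each library came from the sorted nuclei of 1 cortex. The hormone level was altered in the whole animal in the PTU groups, whereas expression of the mutant receptor depended on Cre.

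Hedgehog ligands are lipid-modified proteins that bind Patched receptors at the cell surface. Binding relieves the block that Patched places on Smoothened, which then enters the primary cilium and shifts Gli proteins from repressor to activator forms. Gli1, Ptch1 and Hhip are themselves induced by the pathway in many tissues and serve as its usual readouts. In the adult brain, neurons are known as a source of Shh, and astrocytes as cells that respond to it.

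Library totals were 12957838 to 19141683 counts in PTU_TH and PTU, and 22333742 to 32571175 counts in Mut and Ctrl. Levels are given in CPM, each count divided by its library's TMM-scaled total, and the libraries of the PTU_TH and PTU mice were scaled apart from those of the Mut and Ctrl mice. The parvalbumin neuron markers summed to 6580 to 9200 CPM in PTU_TH and 6230 to 9060 CPM in PTU, and to 8540 to 10800 CPM in Mut and 7880 to 10700 CPM in Ctrl. Of 11 tested in PTU_TH against PTU, 7 were higher and 4 lower, and 0 passed an adjusted p of 0.05 in edgeR. There 3 had an unadjusted p under 0.05 in edgeR, 2 higher and 1 lower (27.3%, beside 7.37% of all genes). Of 11 tested in Mut against Ctrl, 5 were higher and 6 lower, and 1, higher in Mut, passed an adjusted p of 0.05 in edgeR. An unadjusted p under 0.05 in edgeR was met by 6 of them, 2 higher and 4 lower (54.5%, beside 8.74% of all genes). Pvalb itself had 117 to 150 CPM in PTU_TH, against 87.1 to 104 CPM in PTU, and 65.0 to 90.1 CPM in Mut, against 112 to 133 CPM in Ctrl (adjusted p = 0.277 and 0.078 in edgeR). Astrocyte markers summed to 304 to 498 CPM in PTU_TH and 298 to 457 CPM in PTU, and to 342 to 472 CPM in Mut and 371 to 486 CPM in Ctrl. Such sums rest mostly on a few genes and say little of how much of a cell type was present. Slc4a4 alone averaged 345 CPM in PTU_TH and 302 CPM in PTU, beside 1.41 and 1.29 CPM for Aqp4. In the same groups Erbb4 averaged 2080 and 2270 CPM among parvalbumin neuron markers, and Camk2a 215 and 220 CPM among excitatory ones. Excitatory neuron markers summed to 464 to 663 CPM in PTU_TH and 483 to 641 CPM in PTU, and to 425 to 542 CPM in Mut and 443 to 501 CPM in Ctrl. Of 14 excitatory markers tested, 4 were higher and 10 lower in PTU_TH than in PTU, with 0 passing the adjusted threshold in edgeR. In Mut 9 were higher and 5 lower than in Ctrl, and 1, higher in Mut, passed. Rbp4 had 40.8 to 74.8 CPM in Mut, against 14.0 to 19.2 CPM in Ctrl. Slc17a7 had 51.4 CPM in Mut replicate 2, against 17.3 to 27.1 CPM in the other Mut libraries. Markers of other interneurons summed to 97.2 to 162 CPM in PTU_TH and 136 to 173 CPM in PTU, and to 183 to 291 CPM in Mut and 142 to 167 CPM in Ctrl, where the groups did not overlap. Of 8 such markers tested, 7 were lower in PTU_TH than in PTU (median log2 difference −0.35) and 7 were higher in Mut than in Ctrl (median 0.39), with 0 passing the adjusted threshold in edgeR. DESeq2 and limma-voom called 0 of them in PTU_TH against PTU and 1 each in Mut against Ctrl (12.5%, beside 2.36% and 1.95% of all genes). The part of excitatory neurons and of other interneurons in the differences of Shh and Pvalb given here was not tested. The defining markers Cox6a2 of parvalbumin neurons, Gfap of astrocytes and P2ry12 of microglia had 0 counts in every library, and each lies wholly within the span of other genes. Y-linked genes summed to over 50 CPM, and are called present here, in PTU_TH replicates 3 and 4, PTU replicates 6 and 7, Mut replicates 1, 2 and 3, and Ctrl replicate 2. In PTU_TH and PTU, the libraries with Y-linked genes absent also had 34.1% to 40.7% of their counts in genes over 100 kb. Those with them present had 24.9% to 28.4%, and these properties cannot be told apart there. In Mut and Ctrl the shares overlapped, at 31.6% to 39.7% with Y-linked genes absent and 27.4% to 36.7% with them present. Fewer cells of a type and less RNA per cell cannot be told apart in such libraries. Hr, a direct target of the hormone receptor, differed by 3.61 on the log2 scale in PTU_TH against PTU (adjusted p = 0.00251 in edgeR's quasi-likelihood test) and by −3.06 in Mut against Ctrl (adjusted p = 0.0259). Thra itself had 27.8 to 37.9 CPM in Mut, against 48.3 to 62.2 CPM in Ctrl (log2 difference −0.84, adjusted p = 0.028 in edgeR). With each Mut or Ctrl library left out in turn, Hr and Thra each passed in 2 of 8 fits (adjusted p up to 0.111 and 0.137).

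Which bases of a gene could collect counts was read from the tables. Of the protein-coding genes whose whole span lies within the spans of other listed genes, 1324 of 1324 (100%) had 0 counts in all PTU_TH and PTU libraries, against 30.5% of those with no overlap. In Mut and Ctrl the shares were 1079 of 1118 (96.5%) and 21.6%. Genes covered in full thus had almost no counts, and the bases outside other genes were taken as those that could be counted. Shh (ENSMUSG00000002633.4, GRCm38 chr5:28456815-28467256, minus strand) has 86.0% of its span covered by 9530036O11Rik and Gm26894. The 1459 bases that no other gene covers are chr5:28456815-28458273, all within the last of its 3 exons. They hold 31.7% of the coding sequence and 51.2% of the transcript. The first 120 of these bases in the direction of transcription, chr5:28458154-28458273 on the minus strand of GRCm38, are coding and have 76.7% G and C. They are printed, 5′ to 3′ and without capitals, because on that reading the values of Shh rest on this end of the gene.
Shh: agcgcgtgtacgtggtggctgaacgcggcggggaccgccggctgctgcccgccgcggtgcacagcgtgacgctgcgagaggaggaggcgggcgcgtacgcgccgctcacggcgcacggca

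Gli1 (ENSMUSG00000025407.7, chr10:127329882-127341974, minus strand) was covered over 79.8% of its span in the gene list of the PTU_TH and PTU tables, by Arhgap9 and Gm47200, but over 0.513% in the list of the Mut and Ctrl tables. The other members had at most 1.47% of their spans covered. These were Ptch1 (chr13:63508328-63573598, minus strand), Hhip (chr8:79965851-80058006, minus strand), Boc (chr16:44485049-44558897, minus strand), Cdon (chr9:35421128-35507652, plus strand), Smo (chr6:29735503-29761365, plus strand), Gli2 (chr1:118834132-119053619, minus strand) and Gli3 (chr13:15463235-15730026, plus strand).

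A promoter window, the 250 bases before the start that RefSeq gives, was at hand for 6 members in its table of GRCm38.p6: Ptch1, Hhip, Cdon, Smo, Gli2 and Gli3. For Ptch1, Cdon and Gli3 the window lies within the annotated gene span printed above, since other transcripts begin further upstream, and for Cdon and Gli3 it overlaps annotated exons. The bases before those upstream starts were not searched. The window of Ptch1 is shown because Ptch1 is the pathway's receptor, a usual readout of its activity and the member with the most counts. It lies at chr13:63565736-63565985 on the minus strand, and has 78.4% G and C and 41 CG pairs.
Ptch1: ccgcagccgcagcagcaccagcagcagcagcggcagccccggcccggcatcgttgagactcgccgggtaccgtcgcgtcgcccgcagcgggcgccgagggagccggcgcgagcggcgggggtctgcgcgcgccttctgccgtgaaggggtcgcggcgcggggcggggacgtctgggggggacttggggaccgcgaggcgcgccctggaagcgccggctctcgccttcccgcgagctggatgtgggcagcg
The letters GACCACCC, the core that Gli proteins bind, were in 0 of the 6 windows on either strand and in 0.703% of all 32851 windows in the table. The letters AGGTCA, the half-site of thyroid hormone receptors, were in 0 of the 6 and in 14.0% of all. A direct repeat of AGGTCA with 4 bases of any kind between the copies was in 0 of the 6 and in 0.0152% of all, and each window with it is also counted under AGGTCA.

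Among the members, Shh, Ptch1, Boc, Cdon and Gli3 had enough counts to be tested, and Hhip, Smo, Gli1 and Gli2 did not, in either comparison. Levels between genes were compared per kilobase, mainly on 2 scales. Per kilobase of annotated exon (RPKM), Ptch1 and Cdon led in all 4 groups, with group means of 2.87 to 3.35 and 3.05 to 3.32. Their ranges over libraries overlapped in each group. Shh followed with 2.31 ± 0.579 in PTU_TH and 1.14 ± 0.523 in PTU, and with 1.23 ± 0.616 in Mut and 2.00 ± 0.276 in Ctrl (mean RPKM ± SD, n = 4, 3, 4 and 4). Boc came next with 0.665 to 1.11, and then Gli3 with 0.132 to 0.380. The range of Shh overlapped with that of the gene above it in PTU_TH (Cdon) and in Mut (Ptch1), and did not in PTU and Ctrl. Shh and Boc overlapped in PTU and in Mut, and did not in PTU_TH and Ctrl. Hhip, Smo, Gli2 and Gli1 had means of 0.00337 to 0.0755 RPKM, and their ranges overlapped with each other along the order. Hhip did not overlap with Gli3 above it in PTU_TH and Ctrl. Per kilobase of the gene outside other genes, a scale that allows for the overlap, Shh came first in every group. Its means were 4.50 in PTU_TH and 2.22 in PTU, and 2.41 in Mut and 3.91 in Ctrl. Ptch1 then had 0.633 to 0.739, Cdon 0.272 to 0.297 and Boc 0.0401 to 0.0672 CPM per kilobase. On this scale the bases of Shh were all exonic, whereas those of Ptch1, Cdon and Boc were mostly intronic. The exons of Ptch1 and Cdon lie wholly outside other genes. Per kilobase of exon outside other genes, Shh was above Ptch1 and Cdon in PTU_TH and Ctrl. It was below them in PTU (2.22 against 2.88 and 3.25) and in Mut (2.41 against 2.87 and 3.26). The place of Shh among the members therefore depended on the length used.

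**Figure D1:**
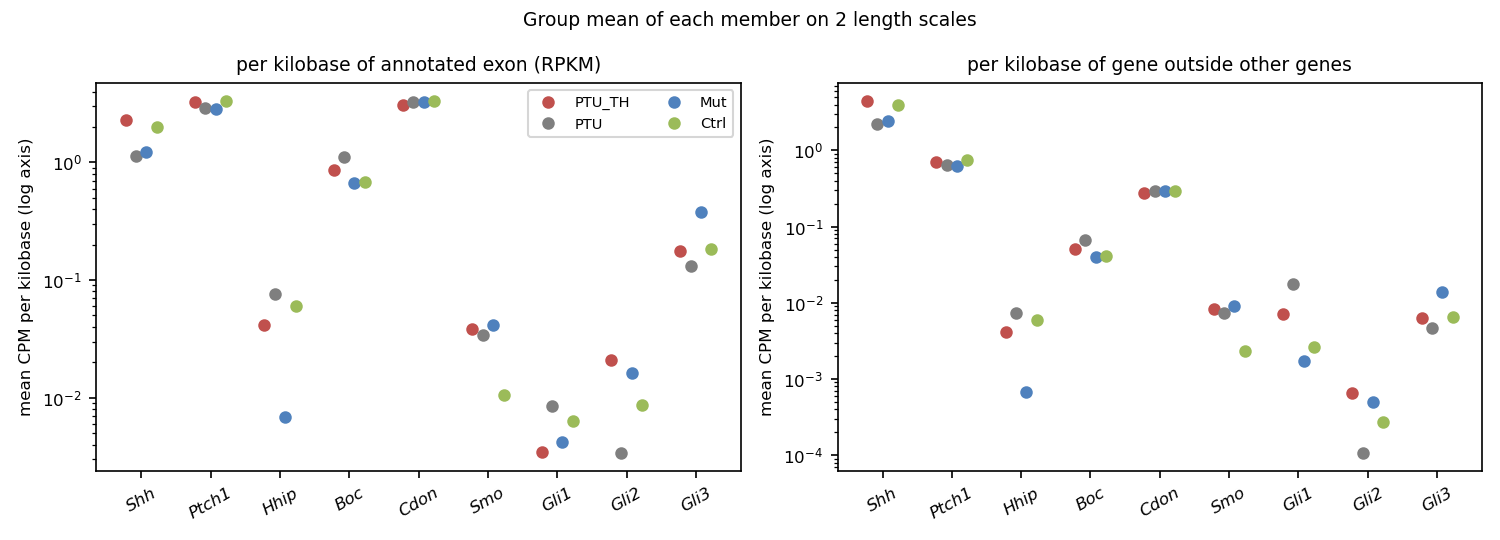
Group means of the 9 members, in CPM per kilobase of annotated exon (left) and per kilobase of the gene outside the spans of other genes (right), both on a log axis, with 1 point for each group. Shh lies below Ptch1 and Cdon on the left (2.31 against 3.23 and 3.05 in PTU_TH) and above them on the right (4.50 against 0.714 and 0.272).

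With these tests, 0 of the 5 tested members passed an adjusted p of 0.05 in PTU_TH against PTU, where 0.281% of 15288 genes did. In Mut against Ctrl it was also 0 of 5, where 0.348% of 16949 genes did. DESeq2 and limma-voom called 0 of the members in both comparisons. Over all genes these tools called 1.33% and 1.12% in PTU_TH against PTU, and 2.36% and 1.95% in Mut against Ctrl. In edgeR, 1 member had an unadjusted p under 0.05 in PTU_TH against PTU (7.37% of all genes) and 0 in Mut against Ctrl (8.74%). In neither comparison did the groups stand apart without overlap for any tested member, as they did for 8.59% and 6.12% of all genes. The median log2 difference of the 5 members was 0.17 in PTU_TH against PTU and −0.04 in Mut against Ctrl, beside −0.003 and 0.014 over all genes tested.

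Shh, the ligand, had 6.66, 4.55, 6.47 and 8.58 CPM in PTU_TH replicates 1 to 4, against 1.95, 4.87 and 2.90 CPM in PTU replicates 5 to 7. These rest on 78 to 124 counts per library in PTU_TH and 28 to 74 in PTU. PTU_TH replicates 1, 3 and 4 were above every PTU library, and the groups overlapped because PTU replicate 6 was above PTU_TH replicate 2. The mean was 2.02-fold that of PTU (log2 difference 1.01 ± 0.35 SE, 95% interval 0.23 to 1.80), and edgeR's quasi-likelihood fit over all genes gave an unadjusted p of 0.017 and an adjusted p of 0.467. Among libraries with Y-linked counts the means were 7.53 CPM in PTU_TH and 3.88 CPM in PTU (n = 2 each). Among those without, they were 5.61 CPM in PTU_TH (n = 2) and 1.95 CPM in PTU (n = 1). With the presence of Y-linked counts as a covariate the log2 difference was 1.15 and passed the threshold (adjusted p = 0.0462 in edgeR). With a surrogate variable it was 1.14 (adjusted p = 0.00503 in edgeR). Both settings also called more genes over the whole table, 972 with the surrogate variable against 43 in the reported test. Over all other settings run, with the libraries left out in turn included, the adjusted p was 0.190 to 1.00.

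In Mut, Shh had 3.82, 5.85, 1.96 and 2.40 CPM in replicates 1 to 4, against 4.90, 6.75, 5.74 and 5.39 CPM in Ctrl. The counts behind these were 56 to 139 per library in Mut and 114 to 164 in Ctrl. Mut replicates 1, 3 and 4 were below every Ctrl library, and Mut replicate 2 lay within the Ctrl range. The log2 difference was −0.70 ± 0.34 SE (95% interval −1.45 to 0.05), and edgeR gave an unadjusted p of 0.0651 and an adjusted p of 0.616. Leaving out Mut replicate 2 gave −1.07 (adjusted p = 0.166), and leaving out Mut replicate 3 gave −0.50 (adjusted p = 0.789). Among libraries with Y-linked counts, Shh averaged 3.88 CPM in Mut (n = 3) and had 6.75 CPM in Ctrl (n = 1). Among those without, it had 2.40 CPM in Mut (n = 1) and averaged 5.34 CPM in Ctrl (n = 3). The signs of the Shh differences were opposite in the 2 comparisons, and whether the differences differ was not tested. In all 4 groups the highest Shh was in the library with the lowest share of counts in genes over 100 kb. These were PTU_TH replicate 4 (24.9%, 8.58 CPM), PTU replicate 6 (25.7%, 4.87 CPM), Mut replicate 2 (27.4%, 5.85 CPM) and Ctrl replicate 2 (29.5%, 6.75 CPM). The lowest Shh was at the highest share in PTU_TH, PTU and Ctrl, but not in Mut. The part of this share in the Shh differences was not tested.

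9530036O11Rik, a gene on the opposite strand that together with Gm26894 covers most of Shh, was looked at after its overlap was seen. It had 21.2 to 43.8 CPM in PTU_TH, against 14.9 to 52.7 CPM in PTU, and 12.4 to 35.2 CPM in Mut, against 19.1 to 34.1 CPM in Ctrl. The groups overlapped widely, and the log2 differences were 0.12 ± 0.45 SE and −0.11 ± 0.30 SE (adjusted p = 1.00 and 0.976 in edgeR). Among the PTU_TH and PTU libraries, PTU replicate 5 had its highest value and the lowest of Shh (1.95 CPM). Mut replicate 3, the lowest of its set for Shh at 1.96 CPM, had 21.9 CPM of 9530036O11Rik, within the Ctrl range. On the reading of the overlap given above, reads that fell in the bases shared by Shh and 9530036O11Rik were counted for neither gene.

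**Figure D2:**
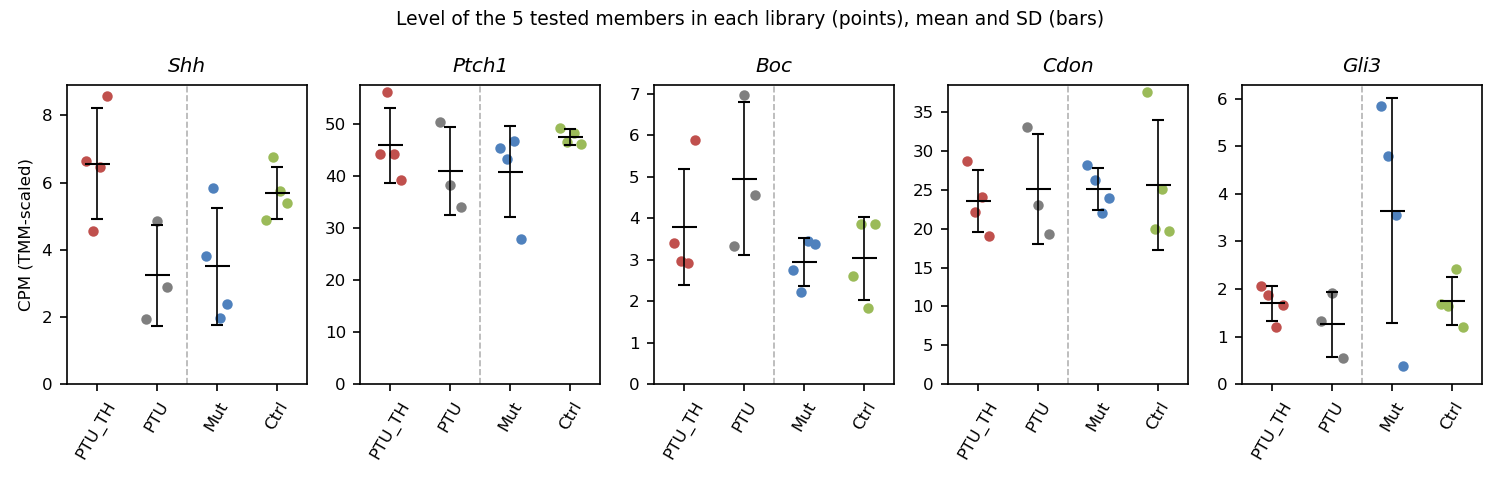
Level of the 5 tested members in each library (points), in CPM, with mean and SD of each group (bars), and the separately scaled pairs PTU_TH with PTU and Mut with Ctrl on either side of the dashed line. Shh lies at 4.55 to 8.58 CPM in PTU_TH and 1.95 to 4.87 CPM in PTU, and at 1.96 to 5.85 CPM in Mut and 4.90 to 6.75 CPM in Ctrl.

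Ptch1, the receptor that holds Smoothened in check, had 44.2, 56.1, 44.1 and 39.2 CPM in PTU_TH, against 50.3, 38.2 and 34.1 CPM in PTU. The groups overlapped, and the log2 difference was 0.17 ± 0.17 SE (95% interval −0.22 to 0.56, adjusted p = 0.982 in edgeR). In Mut it had 45.3, 43.3, 46.6 and 27.8 CPM, against 49.2, 46.4, 48.2 and 46.1 CPM in Ctrl. Mut replicate 4 was far below the other 7 libraries, which lay within 43.3 to 49.2 CPM. The log2 difference of −0.22 ± 0.16 SE (adjusted p = 0.816) became −0.08 without that library.

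Cdon and Boc encode cell surface co-receptors that bind the ligand. Cdon had 28.7, 22.2, 24.1 and 19.1 CPM in PTU_TH, against 33.0, 23.0 and 19.3 CPM in PTU. In Mut it had 28.2, 26.3, 22.0 and 23.9 CPM, against 37.5, 20.0, 25.1 and 19.7 CPM in Ctrl. The groups overlapped in both comparisons, with log2 differences of −0.09 ± 0.21 SE and −0.03 ± 0.21 SE (adjusted p = 1.00 and 0.995 in edgeR). Boc had 3.40, 2.97, 2.93 and 5.88 CPM in PTU_TH, against 3.34, 6.97 and 4.56 CPM in PTU. In Mut it had 2.76, 2.23, 3.45 and 3.39 CPM, against 2.62, 3.87, 1.83 and 3.86 CPM in Ctrl. Its log2 differences were −0.38 ± 0.35 SE and −0.04 ± 0.33 SE (adjusted p = 0.973 and 0.995 in edgeR), and its groups overlapped as well. Without PTU replicate 6 the difference of Boc in PTU_TH against PTU was −0.06. The 95% interval of Cdon in Mut against Ctrl was −0.49 to 0.44, and that of Boc was −0.75 to 0.67.

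Hhip, a membrane protein that binds and holds back Hedgehog ligands, was too low to test. It had 7, 0, 5 and 9 counts in PTU_TH, against 4, 12 and 16 in PTU, and 2, 4, 0 and 0 counts in Mut, against 8, 0, 22 and 25 in Ctrl. The highest Ctrl values came from the libraries without Y-linked counts, in which Hhip averaged 0.732 CPM in Ctrl (n = 3) beside 0 counts in Mut (n = 1), whereas Ctrl replicate 2 had 0 counts. In a fit without a filter on low counts its log2 difference in Mut against Ctrl was −3.09 (unadjusted p of 0.0222, adjusted p = 0.540 in edgeR). In PTU_TH against PTU it was −0.87 (unadjusted p of 0.312, adjusted p = 0.851 in edgeR).

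Smo, which carries the signal into the cell, had 4, 6, 0 and 3 counts in PTU_TH, against 2, 0 and 7 in PTU, and 3, 0, 19 and 5 counts in Mut, against 0, 0, 3 and 3 in Ctrl. Only Mut replicate 3, the deepest library, had more than 7. In CPM these were at most 0.591, with 3 counts being worth 0.0933 to 0.226 CPM in the 15 libraries. Smo was under the filter on low counts in both comparisons. In the fit without that filter its log2 difference was 0.17 in PTU_TH against PTU (unadjusted p of 0.887 in edgeR). In Mut against Ctrl it was 1.90 (unadjusted p of 0.136 in edgeR).

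Gli1, the activator whose own transcription reports pathway activity, had 0, 0, 0 and 1 counts in PTU_TH, against 0, 1 and 1 in PTU, and 1, 0, 0 and 1 counts in Mut, against 2, 0, 1 and 0 in Ctrl. It stayed under 3 counts in all 15 libraries, also in Mut and Ctrl, where 12031 bases of the gene lay outside other genes. Gli2, the main activator upstream of Gli1, had 0, 0, 3 and 5 counts in PTU_TH, against 1, 0 and 0 in PTU, and 0, 4, 2 and 5 counts in Mut, against 1, 0, 2 and 3 in Ctrl, over 219407 bases outside other genes. Both were below the filter in every comparison, and no fold is given for them. In the fit without that filter their unadjusted p was 0.183 to 0.694 in edgeR over the 2 comparisons.

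Gli3, which acts mainly as the repressor of the family, was the only Gli gene with enough counts to test. It had 2.07, 1.87, 1.20 and 1.66 CPM in PTU_TH, against 1.32, 1.91 and 0.555 CPM in PTU, which overlapped (log2 difference 0.44 ± 0.44 SE, adjusted p = 0.982 in edgeR). This became 0.87 without PTU replicate 6 and 0.08 without PTU replicate 7. In Mut it had 5.85, 4.80, 3.55 and 0.386 CPM, against 1.68, 1.65, 2.43 and 1.21 CPM in Ctrl. Mut replicates 1 to 3 were above every Ctrl library, and Mut replicate 4 was below them all. The log2 difference was 1.06 ± 0.59 SE (95% interval −0.24 to 2.37, adjusted p = 0.693 in edgeR), and 1.44 without Mut replicate 4 (adjusted p = 0.167). Those 3 high Mut libraries are also the ones with Y-linked counts. Among libraries with such counts Gli3 averaged 4.73 CPM in Mut (n = 3) and had 1.65 CPM in Ctrl (n = 1). Among those without, it had 0.386 CPM in Mut (n = 1) and averaged 1.77 CPM in Ctrl (n = 3). The direction therefore did not hold within both kinds of library, and with the covariate the log2 difference was −0.15. Sox9, an astrocyte marker, had 3.65 to 4.30 CPM in Mut, against 0.301 to 1.91 CPM in Ctrl (log2 difference 1.75, adjusted p = 0.153 in edgeR). Of the 11 astrocyte markers tested, 6 were higher and 5 lower in Mut, with a median log2 difference of 0.06. The part of astrocyte RNA in the Gli3 values was not tested.

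**Figure D3:**
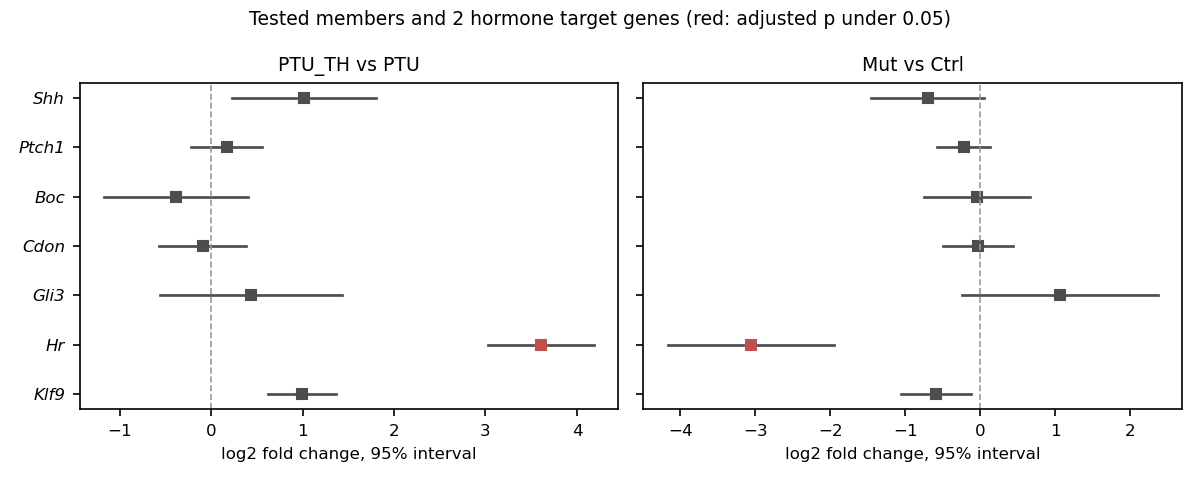
Log2 difference with 95% interval of the 5 tested members and of the hormone targets Hr and Klf9, for PTU_TH against PTU (left) and Mut against Ctrl (right), with adjusted p under 0.05 in red. The interval of Shh runs from 0.23 to 1.80 on the left and from −1.45 to 0.05 on the right, and Hr alone is red in both panels.

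Beyond the members, 70 genes of the pathway were listed by role, of which 58 passed the filter in PTU_TH against PTU and 61 in Mut against Ctrl. In edgeR 0 passed an adjusted p of 0.05 in either comparison. In PTU_TH against PTU, 29 were higher and 29 lower, with a median log2 difference of 0.001. An unadjusted p under 0.05 was met by 10 of them, 5 in each direction (17.2%, beside 7.37% of all genes). DESeq2 called 2 (3.45%, beside 1.33% of all genes) and limma-voom 0. In Mut against Ctrl, 30 were higher and 31 lower, with a median of −0.011. An unadjusted p under 0.05 was met by 6, of which 1 was higher (9.84%, beside 8.74% of all genes). DESeq2 and limma-voom called 1 each (1.64%, beside 2.36% and 1.95% of all genes). The other Hedgehog ligands had few counts, with at most 5 for Dhh and at most 24 for Ihh in any library.

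Of the 8 genes for making and releasing the ligand, 5 were tested in each comparison. Disp2, a relative of the protein that releases the lipid-modified ligand, had 286 to 438 CPM in PTU_TH, against 227 to 358 CPM in PTU (log2 difference 0.21, adjusted p = 0.981 in edgeR). In Mut it had 154 to 263 CPM, against 184 to 313 CPM in Ctrl (−0.28, adjusted p = 0.810). Hhat, the enzyme that attaches palmitate to the ligand, had 8.79 to 19.7 CPM in PTU_TH, against 16.0 to 25.9 CPM in PTU (−0.49, adjusted p = 0.865 in edgeR). It passed with the Y-linked covariate (−0.63, adjusted p = 0.0472 in edgeR) and with the surrogate variable (−0.63, adjusted p = 0.00506). Both of these settings called more genes over the whole table than the reported test did. Scube3, a secreted protein of the family that helps release the ligand, had 5.93, 1.90, 5.47 and 7.12 CPM in Mut, against 9.16, 7.62, 8.57 and 10.1 CPM in Ctrl. These groups did not overlap, but the difference of −0.79 ± 0.34 SE did not pass (adjusted p = 0.533 in edgeR).

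Of the 6 genes listed under reception, 3 were tested in PTU_TH against PTU and 5 in Mut against Ctrl. Among them, Hhatl had the smallest p of all pathway genes in Mut against Ctrl. Hhatl is a relative of Hhat that lacks its palmitoylating activity. Hhat is listed under making the ligand, so the place of Hhatl in this list is a choice, and its values say nothing of reception. It had 19.4, 26.5, 19.7 and 17.6 CPM in Mut, against 32.5, 58.5, 37.6 and 38.5 CPM in Ctrl, so that every Mut library was below every Ctrl library. The log2 difference was −1.01 ± 0.21 SE, just short of the threshold (adjusted p = 0.0686 in edgeR). It passed in 7 of the 18 alternatives, DESeq2 (adjusted p = 0.000455) and limma-voom (adjusted p = 0.0082) among them, and its adjusted p was at most 0.196 in any. In PTU_TH it had 56.9, 40.0, 52.5 and 55.0 CPM, against 38.4, 40.3 and 48.4 CPM in PTU, with overlap (0.27 ± 0.15 SE, adjusted p = 0.822). Gas1, a co-receptor, averaged 5.86 CPM in Mut and 4.16 CPM in Ctrl (0.50, adjusted p = 0.816 in edgeR). Gpc5, a glypican, averaged 1.27 CPM in PTU_TH and 1.84 CPM in PTU (−0.51, adjusted p = 0.981 in edgeR), and the difference was −0.13 without PTU replicate 5.

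All 24 genes of transduction were tested in both comparisons. Prkacb, a catalytic subunit of the protein kinase A that turns Gli proteins into repressors, had 257 to 310 CPM in PTU_TH, against 313 to 407 CPM in PTU (log2 difference −0.37, adjusted p = 0.534 in edgeR). It had 434 to 458 CPM in Mut, against 321 to 410 CPM in Ctrl (0.29, adjusted p = 0.482). The groups did not overlap in either comparison, and neither difference passed. That in PTU_TH against PTU did with the surrogate variable (−0.34, adjusted p = 0.0035 in edgeR), where 972 genes were called over the whole table. Csnk1e, a casein kinase, averaged 112 CPM in PTU_TH and 85.7 CPM in PTU (0.38, adjusted p = 0.404 in edgeR). Arrb1, a beta-arrestin, averaged 119 CPM in Mut and 151 CPM in Ctrl (−0.35, adjusted p = 0.365 in edgeR).

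Of 16 genes of the primary cilium, the organelle through which the signal passes, 15 were tested in each comparison. Ift122, a part of the intraflagellar transport complex for return traffic, had 33.4, 33.9, 30.2 and 29.4 CPM in PTU_TH, against 48.1, 42.8 and 42.8 CPM in PTU. Tctn1, a protein of the ciliary transition zone, had 25.9, 19.2, 28.3 and 22.6 CPM in PTU_TH, against 15.2, 16.0 and 14.9 CPM in PTU. Neither gene's groups overlapped. The log2 differences were −0.49 ± 0.11 SE for Ift122 (adjusted p = 0.188 in edgeR) and 0.64 ± 0.16 SE for Tctn1 (adjusted p = 0.245 in edgeR). DESeq2 called both (adjusted p = 0.0377 and 0.0343). Evc, a ciliary protein that works with Smoothened, averaged 11.6 CPM in Mut and 19.2 CPM in Ctrl (−0.72, adjusted p = 0.442 in edgeR), without overlap, and Mut replicate 2 was lowest at 5.56 CPM. Ift122 in Mut against Ctrl had a difference of 0.30 (adjusted p = 0.590 in edgeR).

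Of 16 genes reported as targets in some tissues, 11 and 12 were tested. Rab34 had 63.8, 54.4, 64.1 and 62.6 CPM in PTU_TH, against 42.0, 51.9 and 48.8 CPM in PTU, with no overlap (log2 difference 0.36, adjusted p = 0.412 in edgeR). In Mut it averaged 35.7 CPM, and in Ctrl 44.6 CPM (−0.32, adjusted p = 0.701). Kcnj10, which also marks astrocytes, averaged 2.51 CPM in PTU_TH and 1.13 CPM in PTU (1.15, adjusted p = 0.448 in edgeR). In the same comparison 3 of the 11 tested astrocyte markers were higher in PTU_TH and 8 lower, and astrocyte RNA as a source of Kcnj10 was not tested. Mycn, a growth-promoting transcription factor, averaged 17.8 CPM in Mut and 23.8 CPM in Ctrl (−0.42, adjusted p = 0.518 in edgeR).

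**Figure D4:**
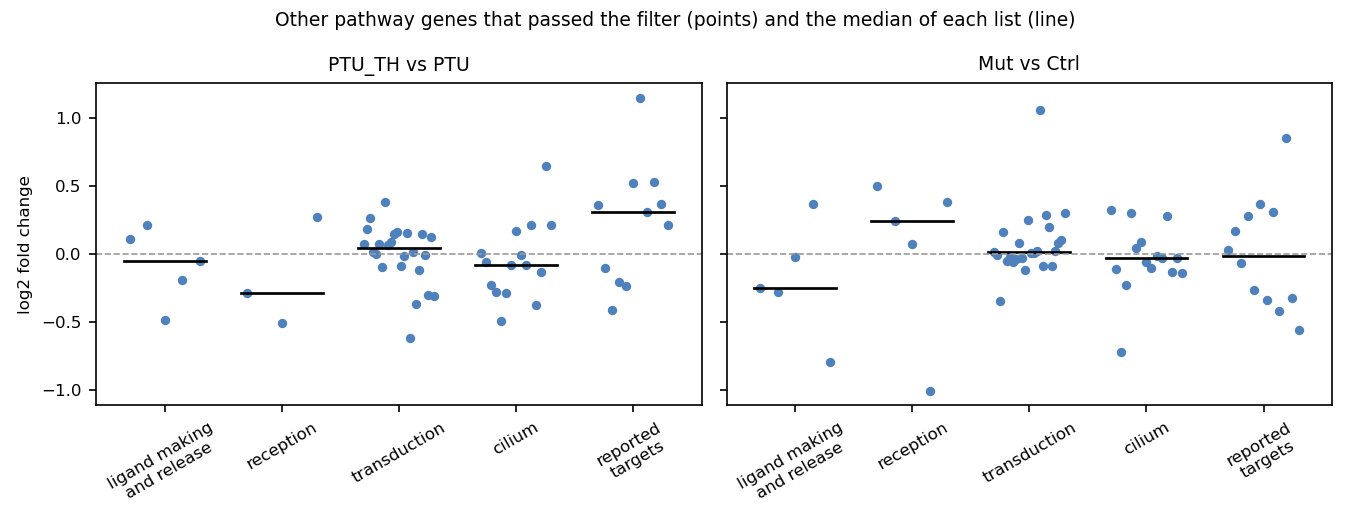
Log2 difference of each tested gene of the 5 other pathway lists (points) with the list's median (line), for PTU_TH against PTU (left) and Mut against Ctrl (right). Points lie on both sides of 0 in every list. The lowest point of the reception list on the right is Hhatl, a relative of the ligand-modifying enzyme Hhat, at −1.01.

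The signs of the differences were opposite in the 2 comparisons for 37 of 58 pathway genes tested in both (63.8%), and for 62.6% of all genes tested in both. Among the 5 members the signs were opposite for Shh and Ptch1, and the same for Boc, Cdon and Gli3. The signs of Boc, Cdon and Gli3 in Mut against Ctrl turned under some of the alternatives.

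The genes whose level was most like that of Shh were sought among 10474 genes with a mean of at least 5 CPM in both sets of libraries. Likeness was Pearson's r over the 15 libraries of log2 CPM minus the mean of the set, a description to which group, depth and library quality all contribute. The 5 most alike were Dhx36, a helicase of G-quadruplexes (0.91), Pdhb, a subunit of pyruvate dehydrogenase (0.91), Klf9, a transcription factor induced by thyroid hormone (0.89), Asic1, an acid-sensing ion channel (0.87), and Rxra, a retinoid X receptor (0.87). Hr had 0.87, whereas the receptor Ptch1 had 0.19 and the co-receptor Cdon −0.17. Klf9 had 62.3, 45.6, 54.0 and 70.7 CPM in PTU_TH, against 26.1, 28.9 and 32.5 CPM in PTU, without overlap (log2 difference 0.99, adjusted p = 0.0556 in edgeR). In Mut it had 23.0, 37.9, 21.5 and 17.8 CPM, against 35.9, 36.2, 40.3 and 38.2 CPM in Ctrl (−0.59, adjusted p = 0.395 in edgeR). That difference passed with limma-voom (−0.81, adjusted p = 0.0125), with the surrogate variable (−0.77, adjusted p = 0.035) and without Mut replicate 2 (−0.86, adjusted p = 0.0237 in edgeR). As for Shh, Mut replicate 2 alone lay within the Ctrl range.

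**Figure D5:**
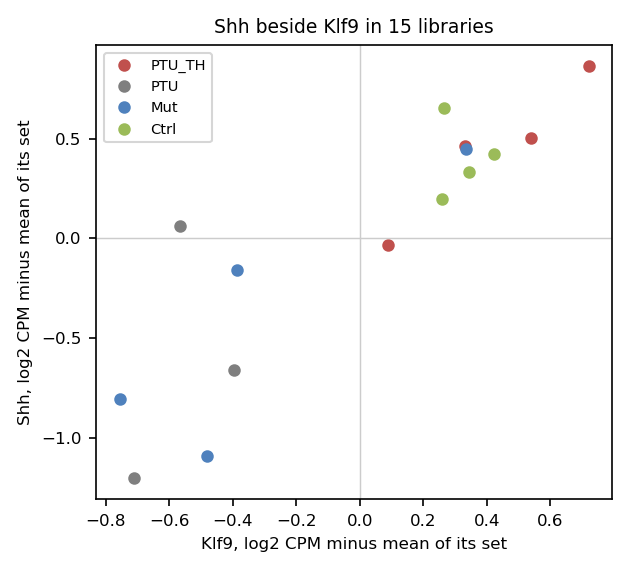
Shh against Klf9 in the 15 libraries, each as log2 CPM minus the mean of its set of libraries (PTU_TH with PTU, Mut with Ctrl), with points coloured by group. PTU_TH and Ctrl libraries lie right of 0 on the Klf9 axis and PTU and Mut libraries left of it, except Mut replicate 2, which lies among the Ctrl libraries (Pearson's r 0.89 over all).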

How the data were processed

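Per the labels' protocols, RNA of nuclei sorted from single cortices was amplified with a SMART-Seq v4 kit. Nextera XT libraries were then read on a NextSeq500 as single ends of 75 bases. For each library the authors deposited raw counts per gene. Bowtie2 2.5.3, HTSeq and mm10 (GRCm38) are named per the submitters' processing notes. No source used here names the counting mode, the strand setting or the release of the annotation, and the amplification does not mark strand. The gene lists differ between the tables of PTU_TH and PTU (55341 genes) and those of Mut and Ctrl (48321 genes), so the sets were normalized and tested apart. A count outside other genes was judged from the overlap of gene spans in GENCODE M21 of GRCm38, a choice made after seeing the data, and RPKM used annotated exon length.

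Groups and replicate numbers came from the titles, which number separate mice. Each comparison used its own libraries in edgeR 4.0.16 under R 4.3.3, with TMM scaling, filterByExpr (minimum count 10), a robust quasi-likelihood test and p-values adjusted by Benjamini-Hochberg over all genes tested, and an adjusted p under 0.05 counted as called. Levels in CPM are counts over the TMM-scaled total, and log2 CPM for likeness used a prior count of 2. The fits were tested on simulated data. Alternatives were DESeq2 1.42.0, limma-voom with quality weights (limma 3.58.1), other scalings and filters, 1 fit of all groups, a covariate for Y-linked counts (threshold 50 CPM), 1 surrogate variable (sva 3.50.0), a block for replicate number, and each library left out in turn. The value of 3 counts given as a limit covers counting error alone, since amplified reads are not independent molecules. The genes named are the 9 members, the 2 genes with the smallest p of each other pathway list per comparison, Hr, Klf9, Thra and Pvalb, and the 5 genes most like Shh. Others were named after their values were seen. The members and lists were chosen with earlier results of these data known.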

Additional observations from a re-analysis of the deposited data

Results flagged for a closer look

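In groups of 4 libraries, a library was picked out when its gap to the nearest other took more than Dixon's critical share of the group's range. Of 84 such groups over 28 genes 5 were picked out, and chance picks out about 1 in 20. All 5 were in PTU_TH. Boc was 5.88 CPM in PTU_TH replicate 4, above 2.93 to 3.40 CPM in the other PTU_TH libraries. Gli1 was 0.0692 CPM in the same library, which is 1 count, beside 0 counts in the other PTU_TH libraries, a pattern that is picked out by construction and says nothing of the gene. Scube3 was also set apart in replicate 4, at 4.15 CPM below 6.40 to 6.81 CPM. Kcnj10 was 1.41 CPM in PTU_TH replicate 1, below 2.84 to 2.93 CPM. Rab34 was 54.4 CPM in PTU_TH replicate 2, below 62.6 to 64.1 CPM.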

How the results depend on the processing

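The Shh difference kept its sign under every alternative run in both comparisons. In PTU_TH against PTU its log2 difference was 0.76 to 1.43 with each library left out and 0.83 to 1.15 otherwise. It passed the threshold with the Y-linked covariate (1.15) and with the surrogate variable (1.14), so that 1 member was called under each, against 0 without them. In Mut against Ctrl it was −1.07 to −0.50 with each library left out and −0.99 to −0.70 otherwise, and never passed. Of the 70 other pathway genes, 58 passed the filter in PTU_TH against PTU, and 0 were called in the reported test. Calls among them numbered 2 with DESeq2, 3 with the Y-linked covariate and 10 with the surrogate variable. Over the whole table of 15288 genes these settings called 204, 335 and 972, against 43 in the reported test. In Mut against Ctrl, 1 gene of 61 tested, Hhatl, was called with DESeq2, limma-voom, the Y-linked covariate, the surrogate variable, the fit of all 4 groups and the replicate block. With each library left out it was 0 to 1. Over the whole table DESeq2 called 2.36% and limma-voom 1.95% of genes. All alternatives run called 31 to 404 genes there, and 11 to 103 with a library left out.

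Some small differences turned sign. In PTU_TH against PTU, Cdon was 0.16 with limma-voom. In Mut against Ctrl, Cdon was 0.08 with the Y-linked covariate, 0.15 with limma-voom and 0.02 with the replicate block. Boc was 0.07 with limma-voom and 0.01 with the surrogate variable, Gli3 was −0.15 with the Y-linked covariate, and 9530036O11Rik was 0.13 with limma-voom. With each library left out, Cdon was −0.25 to 0.15 in PTU_TH against PTU and −0.13 to 0.22 in Mut against Ctrl, and Boc −0.22 to 0.09 in Mut against Ctrl. 9530036O11Rik was −0.19 to 0.88 in PTU_TH against PTU and −0.45 to 0.12 in Mut against Ctrl. The causes were not tested. Unscaled totals moved 36 of 36 group means by less than 1 SD, whereas the length outside other genes moved 27 of 36 means per kilobase by more.

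Genes called over the whole table numbered 43 in PTU_TH against PTU, 40 to 972 over other settings and 5 to 29 with a library left out. In Mut against Ctrl they numbered 59, 31 to 404 and 11 to 103. Mut and Ctrl share replicate numbers. Correlations of same-numbered libraries' deviations were −0.021 to 0.202, and 5 of 8 libraries correlated best with their own number. The highest of all, 0.202, was that of Mut replicate 2 with Ctrl replicate 2. These values do not settle whether the numbers mark pairs, and the reported test treated the libraries as unpaired. With the replicate block Shh was −0.81 (adjusted p = 0.370 in edgeR). No paired analysis was possible for PTU_TH against PTU because they share no numbers. Hhip, Smo, Gli1 and Gli2 were under the filter at these depths, and whether depth or low expression was the reason was not tested. Judged from the overlap of gene spans, the counts of Shh come from 1459 bases.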
